A study of Rattus norvegicus with 8 samples.

Results

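Genes for the mitochondrial carriers, the protein import machinery and the voltage-dependent anion channels were followed in cultured islet cells of neonatal rats after inhibition of tRNA fragments. They were chosen by name alone, as every gene of the deposited expression table whose symbol begins with Slc25a, Timm or Tomm and a number, together with Vdac1, Vdac2 and Vdac3. This gave 55 of 10692 genes, made up of 31 Slc25 carriers, 21 import genes and 3 Vdac genes. Islet cells from Sprague Dawley rats aged 10 days were dissociated, cultured and transfected with a cationic lipid reagent. In the inhibitor group, 4 libraries were made after transfection of 3 locked nucleic acid (LNA) inhibitors, 20 pmol of each and 60 pmol in all, against tiRNA-5 HisGTG, GluCTC and GluTTC, which are 5-prime fragments of those tRNAs. In the control group, 4 libraries were made after transfection of a scrambled control LNA at 60 pmol. The labels do not tie libraries to cultures, litters or pools of animals, so a p-value here reflects only how far these libraries scatter, which may be technical.

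Expression is given as RPKM, a read density per gene length, scaled to library size. Reads in the listed genes, recovered from the RPKM, came to between 16035607 and 19049788 per library. All 10 islet markers examined were measured. They cover the endocrine classes of beta cells (Ins1, Ins2, Iapp), alpha cells (Gcg), delta cells (Sst) and PP cells (Ppy). Ins1 was the most abundant, at 100700 to 158400 RPKM in inhibitor and 126400 to 162900 RPKM in control libraries. Of the 10 markers, 8 had a negative and 2 a positive log2 fold change of inhibitor over control, from -0.511 to 0.0842. The positive share was 20.0%, against 54.3% of all genes. By limma 1 marker, lower in inhibitor cells, had an unadjusted p under 0.05, and 0 passed adjustment over all genes. Sst was at 397.2 to 599.1 RPKM in inhibitor and 582.7 to 1039 RPKM in control libraries, with overlap. Any part of this in the mitochondrial genes was not tested. Of 12 mesenchymal markers 9 were measured, with a summed level of 2740 to 4475 RPKM in inhibitor and 2569 to 5395 RPKM in control libraries. Of 9 acinar and ductal markers 2 were measured, summing to 68.9 to 83.9 RPKM in inhibitor and 73.1 to 91.1 RPKM in control libraries, and of 7 endothelial and immune markers 1 was measured, at 1.78 to 3.89 RPKM in inhibitor and 1.48 to 3.49 RPKM in control libraries. Inhibitor 4 stood apart by its Y-linked genes, with Eif2s3y at 0.257 RPKM, against 6.86 to 18.8 RPKM in the other inhibitor libraries and 6.96 to 14.2 RPKM in control libraries. Control 1 had the lowest mesenchymal sum.

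Most Slc25 carriers are inner membrane proteins that exchange nucleotides, phosphate, carboxylates, amino acids and cofactors between the matrix and the cytosol, and the Vdac channels let the same small molecules pass the outer membrane. Nearly all mitochondrial proteins are made in the cytosol and enter through the TOM complex of the outer membrane, from where the TIM23 complex takes proteins with a presequence and the small Tim chaperones with TIM22 take the carriers themselves. In beta cells, mitochondrial ATP couples glucose to insulin release, and malate, citrate, aspartate and glutamate carriers link the matrix to cytosolic metabolism.

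Promoters of nuclear genes for mitochondrial proteins often hold sites for NRF1 and for ETS factors, so the RefSeq promoters of 3 genes are printed that recur in the results, the import receptor Tomm20, the import channel Tomm40 and the outer membrane channel Vdac1. Each runs from 250 bases before to 50 bases after the start of the gene, 5′ to 3′ on the strand of the gene, in build GRCr8, which is not the build of the expression values. Capitals mark matches on either strand to the NRF1 motif, the ETS motif CCGGAAG and the SP1 motif GGGCGG. The Tomm20 promoter (chr19:71832371-71832670, minus strand) has 1 match to each, the Tomm40 promoter (chr1:88498784-88499083, minus strand) has SP1 matches alone, and the Vdac1 promoter (chr10:37032959-37033258, plus strand) has 3 SP1 matches, of which the last 2 share a base.
Tomm20: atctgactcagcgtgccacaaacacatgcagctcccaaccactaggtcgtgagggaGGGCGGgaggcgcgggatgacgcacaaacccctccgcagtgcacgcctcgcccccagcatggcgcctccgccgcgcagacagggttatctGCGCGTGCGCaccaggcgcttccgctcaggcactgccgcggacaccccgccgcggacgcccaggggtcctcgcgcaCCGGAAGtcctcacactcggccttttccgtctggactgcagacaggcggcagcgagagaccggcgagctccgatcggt
Tomm40: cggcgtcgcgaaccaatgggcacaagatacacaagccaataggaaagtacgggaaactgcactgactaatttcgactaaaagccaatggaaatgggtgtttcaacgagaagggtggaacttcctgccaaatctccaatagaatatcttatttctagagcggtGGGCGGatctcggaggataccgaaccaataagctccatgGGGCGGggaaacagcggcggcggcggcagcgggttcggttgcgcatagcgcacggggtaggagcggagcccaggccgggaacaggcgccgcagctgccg
Vdac1: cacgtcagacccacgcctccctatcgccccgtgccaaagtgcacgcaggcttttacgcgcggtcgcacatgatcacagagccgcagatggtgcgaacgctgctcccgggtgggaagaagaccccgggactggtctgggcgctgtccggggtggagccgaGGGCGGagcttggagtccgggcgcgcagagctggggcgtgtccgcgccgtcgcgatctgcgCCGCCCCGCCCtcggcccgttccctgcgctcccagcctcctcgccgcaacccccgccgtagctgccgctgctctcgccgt
Promoters were found for 45 of the 55 genes by symbol. Of these, 12 (26.7%) held the ETS motif, against 18.8% of 8130 promoters of all genes tested, and 3 (6.67%) held the NRF1 motif, against 10.9%. The genes with the NRF1 motif were Tomm20, Tomm7 and Timm21. The SP1 motif was in 33 (73.3%), against 65.3%, and the YY1 motif AANATGGCG in 4 (8.89%), against 7.12%. ETS matches stood in Tomm20, Tomm22, Tomm70, Timm8b, Timm10, Timm10b and, among the carriers, in Slc25a3, Slc25a4, Slc25a14, Slc25a17, Slc25a20 and Slc25a38. These are matches of letters in a fixed window, not measured binding.

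None of the 55 genes differed between inhibitor and control cells after adjustment over the whole table, and every difference was small. On the log2(RPKM + 1) scale the widest fold changes of inhibitor over control were 0.24 for Slc25a37 and -0.22 for Slc25a10. Both moved with single libraries. Slc25a37 went to 0.13 without control 1, 0.36 without control 4 and 0.045 with library weights. Slc25a10 went to -0.12 without control 1 and -0.32 without inhibitor 2. The order also depended on the added 1. With 0.1 added, Slc25a33 was at -0.28 and Slc25a10 at -0.23, and their ratios of means were 0.825 and 0.854. By limma with Benjamini-Hochberg adjustment over 10688 genes, 0 of 55 passed at 0.05, against 0.0% of all genes, and the smallest adjusted p of a member was 0.541. At an unadjusted p under 0.05 there were 6 members (10.9%), against 8.98% of all genes, with 5 of them higher (5.52% of all genes) and 1 lower (3.46%). With limma-voom, fitted to whole reads recovered from the RPKM, 0 members were called and 6 had an unadjusted p under 0.05. For 0 of the 55 genes did the 4 inhibitor values lie entirely to one side of the 4 control values, against 5.31% of all genes. The 6 genes were Slc25a11, Vdac1, Vdac2, Timm9 and Tomm20, higher in inhibitor cells, and Tomm40, lower in inhibitor cells. Of the 55, 34 (61.8%) had a positive fold change, against 54.3% of all genes, and the median was 0.04 against 0.02 over all genes. Both shares lie near the background of the table. The half-width of a member's 95% confidence interval had a median of 0.186 (log2). In bulk libraries, fewer cells of a type and less RNA per cell cannot be told apart.

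**Figure D1:**
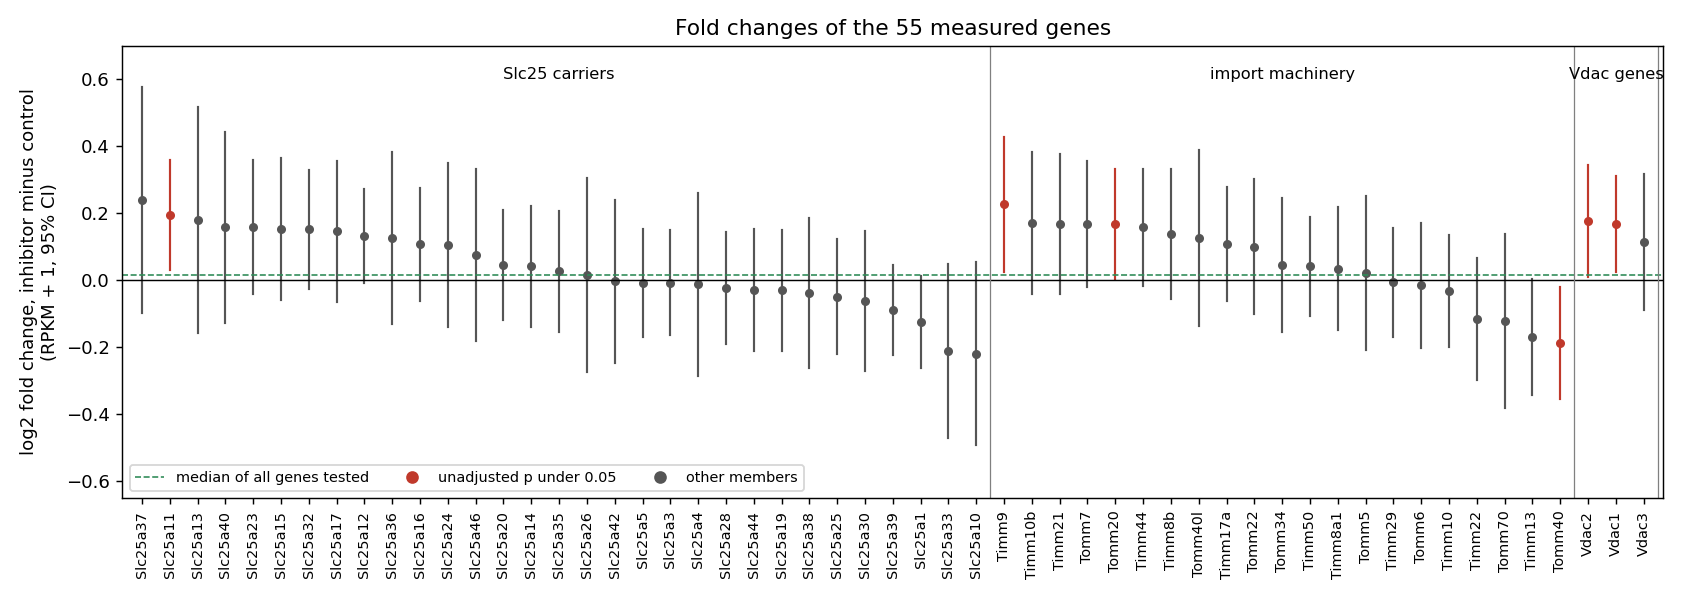
Log2 fold change of each of the 55 genes (points; inhibitor minus control, RPKM + 1) with its 95% confidence interval (bars), in 3 classes from high to low. Points in red have an unadjusted limma p under 0.05, and none passed adjustment over all genes; the dashed line is the median of all genes tested, 0.02.

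The genes differed far more from each other than between the groups. Mean RPKM over the 8 libraries, a level per length, ran 67.6-fold from 1.92 for Tomm70, an import receptor, to 129.7 for Slc25a4. The median member stood at 15.5 RPKM, against 9.96 RPKM over all genes. Above 50 RPKM were 11 genes, in the order Slc25a4, Slc25a3, Tomm20, Vdac3, Tomm6, Tomm7, Vdac2, Slc25a5, Slc25a39, Timm8b and Vdac1. Within this order Slc25a4, Slc25a3 and Tomm20 had overlapping values, as did Vdac2, Slc25a5 and Slc25a39. Below 5 RPKM were 14 genes, 11 of them carriers. The recovered reads behind a member ranged from 46 in one library for Slc25a26 to 5182 for Slc25a3. The within-group SD of log2(RPKM + 1) had a median of 0.121 over the members, against 0.128 over all genes. It was lowest for Slc25a39 (0.0661) and highest for Slc25a13 (0.2495).

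**Figure D2:**
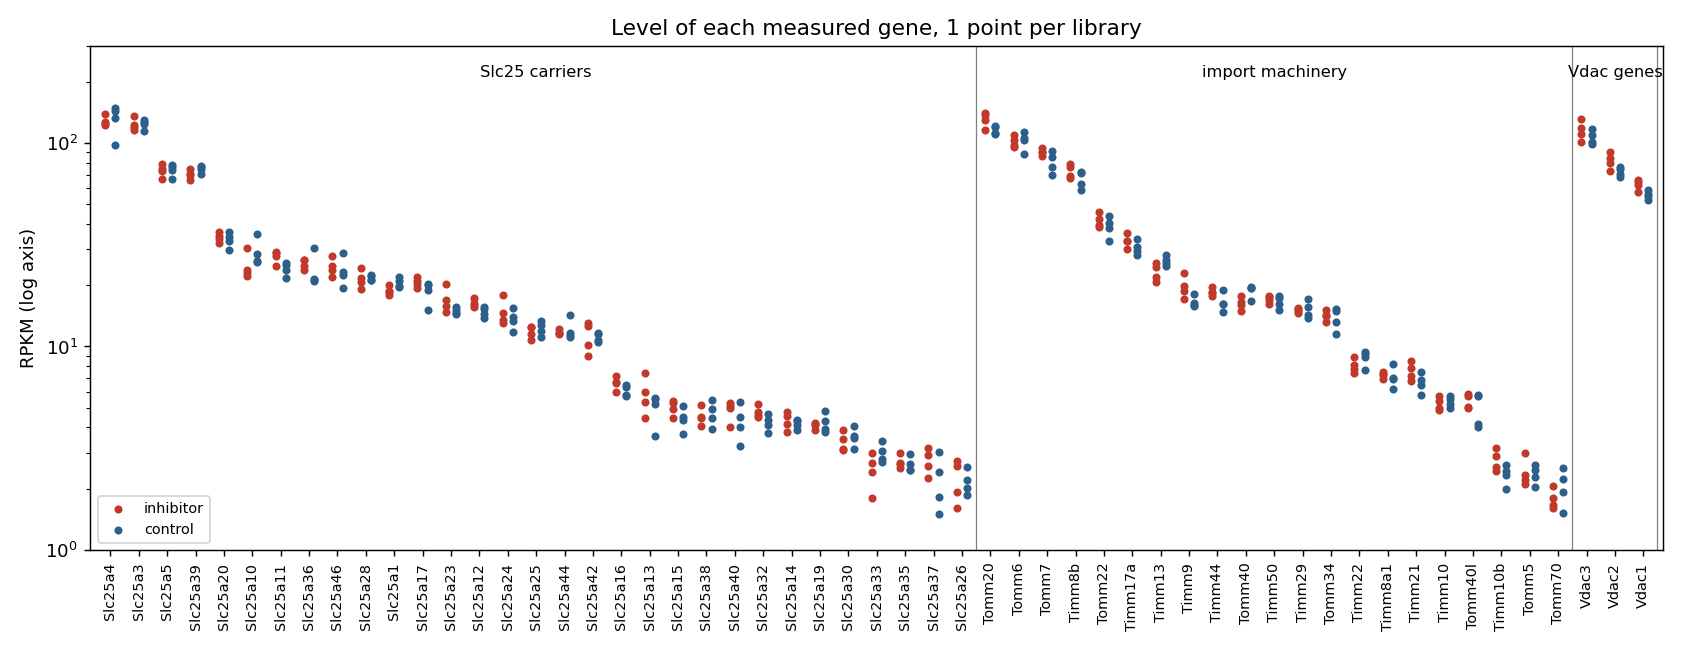
RPKM of each gene on a log axis, 1 point per library, inhibitor libraries left and control libraries right of each tick, in 3 classes sorted by mean. Levels span 1.92 RPKM (Tomm70) to 129.7 RPKM (Slc25a4) as means over 8 libraries, while the 2 groups of a gene overlap throughout.

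The Vdac genes, pores of the outer membrane for metabolites, were all higher on average in inhibitor cells, by ratios of means of 1.09 to 1.13, and none passed the adjusted test. A positive fold change was found for 54.3% of all genes. Vdac1, the isoform best known for binding hexokinase, had 66.1, 64.4, 57.5 and 62.3 RPKM in inhibitor libraries 1 to 4, against 54.6, 56.2, 52.5 and 58.8 RPKM in control libraries 1 to 4. Inhibitor 3 lay below control 4, and the other inhibitor libraries lay above every control. The log2 fold change of Vdac1 was 0.17 ± 0.064 (SE; limma adjusted p = 0.541). Vdac2, known to bind the death protein BAK, had 84.7, 80.0, 73.0 and 89.9 RPKM in inhibitor libraries, against 67.9, 74.1, 70.6 and 76.3 RPKM in control libraries, with the same inhibitor library inside the control range. Its log2 fold change was 0.18 ± 0.075 (SE; limma adjusted p = 0.543). Vdac3 was the most abundant, with a mean of 116 ± 12.96 RPKM in inhibitor and 107 ± 8.32 RPKM in control cells (SD, n = 4 each; limma adjusted p = 0.6565). The Vdac3 log2 fold change of 0.11 became 0.050 without inhibitor 4, 0.175 without inhibitor 3 and 0.013 without both control 1 and inhibitor 4, where the median of the 3 genes was 0.10 in place of 0.17. The summed level of the 3 genes was 231.8 to 284 RPKM in inhibitor and 220.9 to 252 RPKM in control libraries. With median-of-ratios scaling Vdac1, Vdac2, Slc25a11 and Timm13 no longer overlapped between the groups, still against 5.31% of all genes. The reference table lists pseudogenes or copies named after each Vdac gene, 16 for Vdac1 and 5 for Vdac2, so their reads are less certain than those of single-copy genes.

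**Figure D3:**
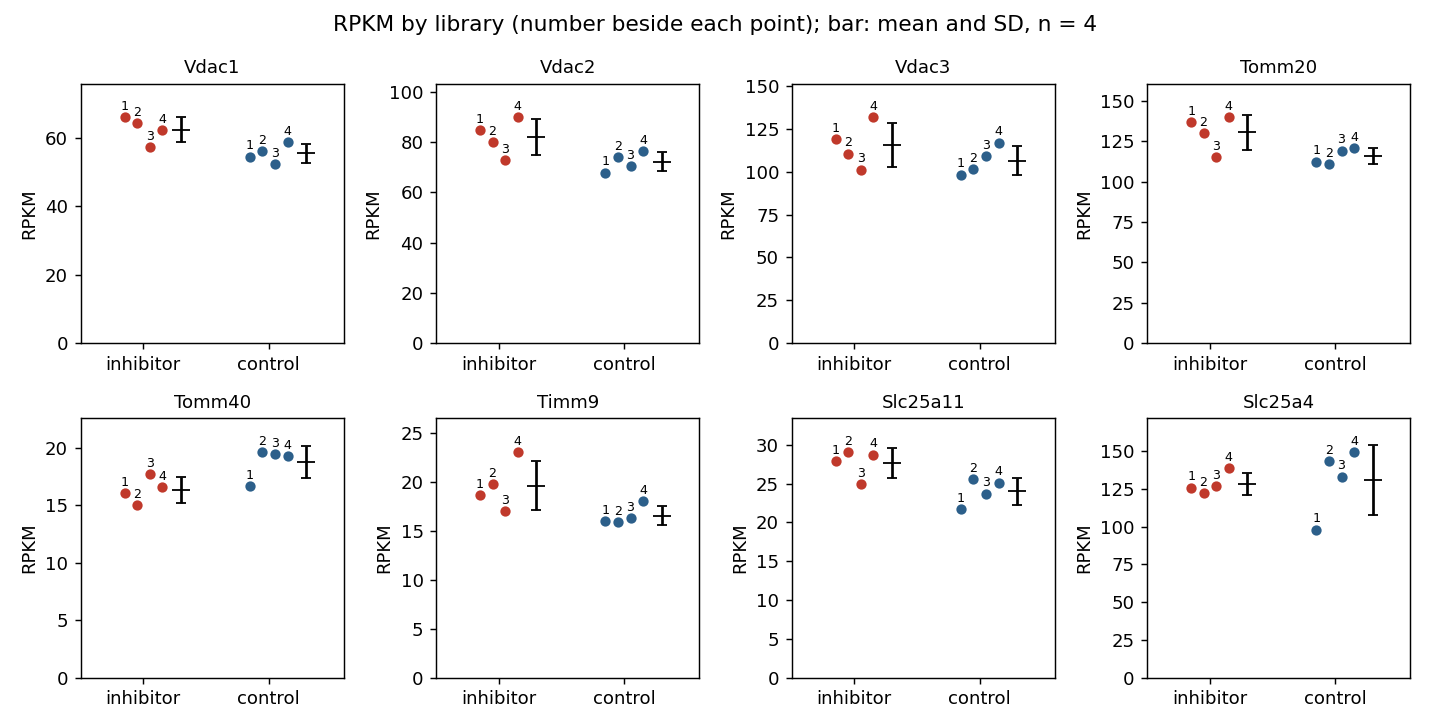
RPKM by library for 8 genes on linear axes from 0, with the library number beside each point and the mean and SD (n = 4) as bars. Inhibitor 3 is the lowest inhibitor library for Vdac1, Vdac2, Vdac3, Tomm20, Timm9 and Slc25a11, and control 1 is the lowest control for Slc25a4 (98.0 RPKM) and Tomm40 (16.6 RPKM).

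Of 9 measured genes of the outer membrane translocase and its partners, 6 had a positive and 3 a negative fold change, and 0 passed the adjusted test. The positive share was 66.7%, against 54.3% of all genes. Tomm20 and Tomm40 are set out because they had the smallest limma p in each direction. Among the others, Tomm7, Tomm22 and Tomm70 had log2 fold changes of 0.17, 0.10 and -0.12. Tomm20, the receptor, had 137, 130.3, 115 and 139.8 RPKM in inhibitor libraries 1 to 4, against 112, 111, 119 and 121 RPKM in control libraries 1 to 4. Inhibitor 3 fell among the controls, and the others were above them. The log2 fold change of Tomm20 was 0.17 ± 0.073 (SE; limma adjusted p = 0.550). Tomm40, the channel, had 16.1, 15.02, 17.7 and 16.6 RPKM in inhibitor libraries, against 16.6, 19.6, 19.5 and 19.3 RPKM in control libraries, so that control 1 lay within the inhibitor range. Its log2 fold change was -0.19 ± 0.074 (SE; limma adjusted p = 0.541). Tomm40l, a paralog of the channel, was at 5.39 ± 0.454 RPKM in inhibitor and 4.90 ± 0.955 RPKM in control cells (SD, n = 4 each), with a log2 fold change of 0.13 ± 0.12 (SE). Tomm6, a small subunit, was at 101.5 ± 6.30 RPKM in inhibitor and 103 ± 10.3 RPKM in control cells (SD, n = 4 each). Copies of Tomm20 and of the small subunit Tomm7 are listed in the reference table, 4 for Tomm20 and 5 for Tomm7.

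All 4 measured genes of the presequence translocase TIM23 had a positive fold change, between 0.04 and 0.17, as did 54.3% of all genes. By limma 0 of the 4 reached an unadjusted p under 0.05, against 8.98% of all genes. Timm44, which tethers the import motor to the channel, had 19.7, 18.3, 17.6 and 18.6 RPKM in inhibitor libraries, against 14.8, 16.2, 16.2 and 19.0 RPKM in control libraries. Control 4 was above 3 of the 4 inhibitor libraries, and the other controls were below all of them. Timm17a, a channel subunit, was at 33.1 ± 2.49 RPKM in inhibitor and 30.7 ± 2.45 RPKM in control cells (SD, n = 4 each; limma adjusted p = 0.622).

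The 8 measured genes of TIM22 and the small Tim chaperones, which escort carriers through the intermembrane space, were split evenly, with 4 positive and 4 negative fold changes. Timm9, a small Tim chaperone, had 18.7, 19.8, 17.1 and 23.1 RPKM in inhibitor libraries, against 16.0, 15.9, 16.3 and 18.02 RPKM in control libraries, so control 4 was above inhibitor 3. Its log2 fold change was 0.23 ± 0.090 (SE; limma adjusted p = 0.541). Timm10, its partner in the chaperone hexamer, was at 5.24 ± 0.391 RPKM in inhibitor and 5.37 ± 0.314 RPKM in control cells (SD, n = 4 each). Timm13, of the other hexamer, had 21.9, 25.7, 24.6 and 20.8 RPKM in inhibitor libraries, against 24.7, 26.5, 25.6 and 28.0 RPKM in control libraries, with overlap through inhibitor 2. Its log2 fold change was -0.17 ± 0.078 (SE; limma adjusted p = 0.554), and that of Timm8b, another small Tim protein, at 72.8 ± 5.80 RPKM in inhibitor and 66.2 ± 6.72 RPKM in control cells (SD, n = 4 each), was 0.14 ± 0.087 (SE). The gene of Timm9 shares its reference span with Tomm20l and Kiaa0586, as do those of Slc25a11 with Gp1ba, Tomm20 with Rbm34 and Vdac2 with Comtd1. Of the 55 genes, 28 share their span with another gene, 20 of them with a protein-coding one, and how reads on each strand were counted is not stated, so reads of such pairs may not be told apart.

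The carriers that serve ATP synthesis were among the most abundant and had nearly equal means in both groups over all 8 libraries. Slc25a3 brings phosphate into the matrix, and Slc25a4 and Slc25a5 exchange ADP for ATP. Their log2 fold changes were -0.01 ± 0.070, -0.01 ± 0.12 and -0.01 ± 0.072 (SE; limma adjusted p = 0.98 for each), with 95% confidence intervals of -0.16 to 0.15, -0.29 to 0.26 and -0.17 to 0.15. Slc25a4 had 126, 122, 127 and 139 RPKM in inhibitor libraries 1 to 4, against 98.0, 144, 133 and 149 RPKM in control libraries 1 to 4. Control 1 was the lowest of all 8 libraries, and without it and inhibitor 4 the groups did not overlap for Slc25a4 and Slc25a3, both lower in inhibitor cells, a state without overlap that 20.9% of all genes then shared. Their log2 fold changes were then -0.18 for Slc25a4 and -0.09 for Slc25a3, with -0.09 for Slc25a5. The mesenchymal marker sum was 3575, 2740, 4475 and 4269 RPKM in inhibitor libraries 1 to 4, against 2569, 5395, 4647 and 5107 RPKM in control libraries 1 to 4, lowest where Slc25a4 was lowest in each group. Its part in the Slc25a4 values was not tested. Slc25a5 was at 73.2 ± 5.11 RPKM in inhibitor and 73.5 ± 4.77 RPKM in control cells (SD, n = 4 each), and the reference table lists 10 copies named after it.

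Among 5 measured carriers of carboxylates, aspartate and glutamate, 3 had positive and 2 negative fold changes (60.0% positive, against 54.3% of all genes). By limma 1 of them (20.0%, against 8.98% of all genes) was at an unadjusted p under 0.05. That gene, Slc25a11, the oxoglutarate and malate carrier of the malate-aspartate shuttle, had 27.9, 29.0, 24.9 and 28.7 RPKM in inhibitor libraries, against 21.7, 25.6, 23.7 and 25.1 RPKM in control libraries. Inhibitor 3 lay within the control range and the others above it. The log2 fold change of Slc25a11 was 0.20 ± 0.073 (SE; limma adjusted p = 0.541). Slc25a12, the calcium-regulated aspartate and glutamate carrier of the same shuttle, had 17.3, 16.3, 15.7 and 15.9 RPKM in inhibitor libraries, against 13.8, 14.4, 15.2 and 15.7 RPKM in control libraries (limma adjusted p = 0.554). Its paralog Slc25a13 was at 5.80 ± 1.24 RPKM in inhibitor and 4.99 ± 0.912 RPKM in control cells (SD, n = 4 each). The dicarboxylate carrier Slc25a10 had 22.2, 30.4, 22.9 and 23.6 RPKM in inhibitor libraries, against 35.6, 28.5, 26.2 and 25.9 RPKM in control libraries, with inhibitor 2 above 3 of the controls (limma adjusted p = 0.577). The citrate carrier Slc25a1, which feeds cytosolic acetyl-CoA, was at 18.8 ± 0.871 RPKM in inhibitor and 20.6 ± 1.07 RPKM in control cells (SD, n = 4 each; limma adjusted p = 0.564).

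Of 11 measured carriers of nucleotides and cofactors, 7 had positive and 4 negative fold changes (63.6% positive, against 54.3% of all genes). By limma 0 reached an unadjusted p under 0.05, against 8.98% of all genes. The pyrimidine nucleotide carriers Slc25a36 and Slc25a33 had fold changes of opposite sign. Slc25a36 had 24.8, 26.7, 26.7 and 23.8 RPKM in inhibitor libraries, against 30.5, 21.3, 20.9 and 21.6 RPKM in control libraries, so that control 1 was the highest of all 8 libraries and the other controls were below every inhibitor library. Its log2 fold change was 0.13 ± 0.11 (SE; limma adjusted p = 0.690). Slc25a33 was at 2.47 ± 0.497 RPKM in inhibitor and 3.00 ± 0.316 RPKM in control cells (SD, n = 4 each), a log2 fold change of -0.21 ± 0.12 (SE; limma adjusted p = 0.577). The ATP-Mg and phosphate carriers Slc25a23 and Slc25a24 had log2 fold changes of 0.16 ± 0.090 and 0.11 ± 0.11 (SE). Slc25a32, linked to folate and FAD transport, had 0.15 ± 0.080 (SE), and the peroxisomal carrier Slc25a17 had 0.15 ± 0.094 (SE), with adjusted p of 0.5745 and 0.605 by limma.

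Among the remaining 12 carriers, limma gave an unadjusted p under 0.05 for 0. The carnitine and acylcarnitine carrier Slc25a20, which brings fatty acids in for oxidation, was at 34.4 ± 1.89 RPKM in inhibitor and 33.4 ± 2.86 RPKM in control cells (SD, n = 4 each). The ornithine carrier Slc25a15 had a log2 fold change of 0.15 ± 0.095 (SE), the glycine carrier Slc25a38 -0.04 ± 0.10 (SE) and Slc25a44, a carrier of branched-chain amino acids, -0.03 ± 0.082 (SE). The mitochondrial glutathione carrier Slc25a39 was at 70.1 ± 3.54 RPKM in inhibitor and 74.6 ± 3.10 RPKM in control cells (SD, n = 4 each; limma adjusted p = 0.612), and its relative Slc25a40 at 4.85 ± 0.570 RPKM in inhibitor and 4.27 ± 0.880 RPKM in control cells. The mitoferrins, which import iron, were measured as Slc25a28 at 21.5 ± 2.16 RPKM in inhibitor and 21.8 ± 0.702 RPKM in control cells, and Slc25a37 at 2.73 ± 0.400 RPKM in inhibitor and 2.19 ± 0.676 RPKM in control cells (SD, n = 4 each). Slc25a14 and Slc25a30, related to the uncoupling proteins, had log2 fold changes of 0.04 ± 0.081 and -0.06 ± 0.093 (SE), Slc25a46 of the outer membrane 0.08 ± 0.12 (SE) and Slc25a35 0.03 ± 0.081 (SE).

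Ratios between related genes mostly overlapped between the groups. Over 9 measured pairs, the groups overlapped in 8. Slc25a5 stood at 0.571 ± 0.0342 of Slc25a4 in inhibitor and 0.572 ± 0.0821 in control libraries, and Vdac2 at 1.31 ± 0.0905 times Vdac1 in inhibitor and 1.301 ± 0.0432 times in control libraries (SD, n = 4 each). Vdac3 stood at 1.85 ± 0.181 times Vdac1 in inhibitor and 1.92 ± 0.137 times in control libraries, and Slc25a13 at 0.356 ± 0.0799 of Slc25a12 in inhibitor and 0.340 ± 0.0731 in control libraries (SD, n = 4 each). Tomm40l over Tomm40 was the pair without overlap, at 0.313, 0.389, 0.323 and 0.2995 in inhibitor libraries, against 0.2502, 0.2903, 0.2055 and 0.2989 in control libraries. The lowest inhibitor and the highest control ratio of that pair were nearly equal, and no test was run on the ratios. Slc25a39 exceeded Slc25a40 by 13.1 to 16.4 times in inhibitor and 14.3 to 23.8 times in control libraries, and Slc25a28 exceeded Slc25a37 by 6.54 to 9.71 times in inhibitor and 7.01 to 14.8 times in control libraries. Slc25a36 was 8.001 to 14.8 times Slc25a33 in inhibitor and 6.30 to 10.9 times in control libraries, while Slc25a24 was 0.649 to 1.22 times Slc25a23 in inhibitor and 0.779 to 1.05 times in control libraries.

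**Figure D4:**
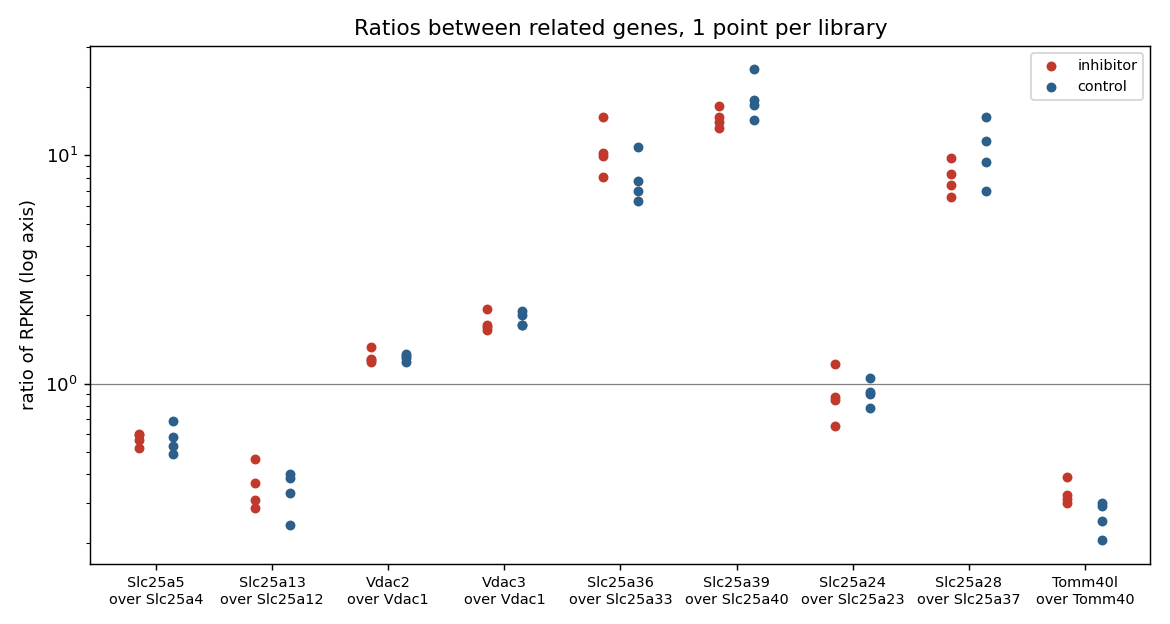
Ratio of RPKM between 9 pairs of related genes on a log axis, 1 point per library, inhibitor left and control right of each tick, with a line at equal levels. Slc25a39 exceeds Slc25a40 and Slc25a28 exceeds Slc25a37 several fold in all 8 libraries, and only for Tomm40l over Tomm40 do the groups lie apart, by 0.2995 against 0.2989 at the closest points.

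The counts moved with single libraries. Each gene was compared with its own mean over the 8 libraries on the log2(RPKM + 1) scale. The median deviation of the 3 Vdac genes was 0.14, 0.059, -0.07 and 0.22 in inhibitor libraries 1 to 4, against -0.17, -0.07, -0.12 and -0.0018 in control libraries 1 to 4. For the 21 import genes it was 0.02, 0.02, -0.02 and 0.08 in inhibitor libraries, against -0.15, -0.04, 0.04 and 0.05 in control libraries, and for the 31 carriers it lay between -0.06 and 0.05 in both groups. Control 1 held the lowest value of 21 of the 55 genes (38.2%), against 28.2% of all genes, and inhibitor 4 the highest value of 16 (29.1%), against 24.1% of all genes. All genes shared part of this, with a median deviation of 0.05 in inhibitor 4 and -0.05 in control 1. Without inhibitor 1 the number of members at an unadjusted p under 0.05 was 1 (1.82%, against 3.95% of all genes), the gene being Timm9, and without control 4 it was 9 (16.4%, against 11.3%). It was 3 without inhibitor 2 (5.45%, against 8.72%), 2 without control 2 (3.64%, against 4.63%) and 2 without control 3 (3.64%, against 7.57%). Without both control 1 and inhibitor 4, 6 members had an unadjusted p under 0.05 (10.9%, against 15.9% of all genes), and Tomm40 was the one gene among them that was also found with all libraries. Members without overlap numbered 8 without inhibitor 3, against 12% of all genes, 5 without control 4, against 11.6%, and 4 without control 1, against 11.7%.

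**Figure D5:**
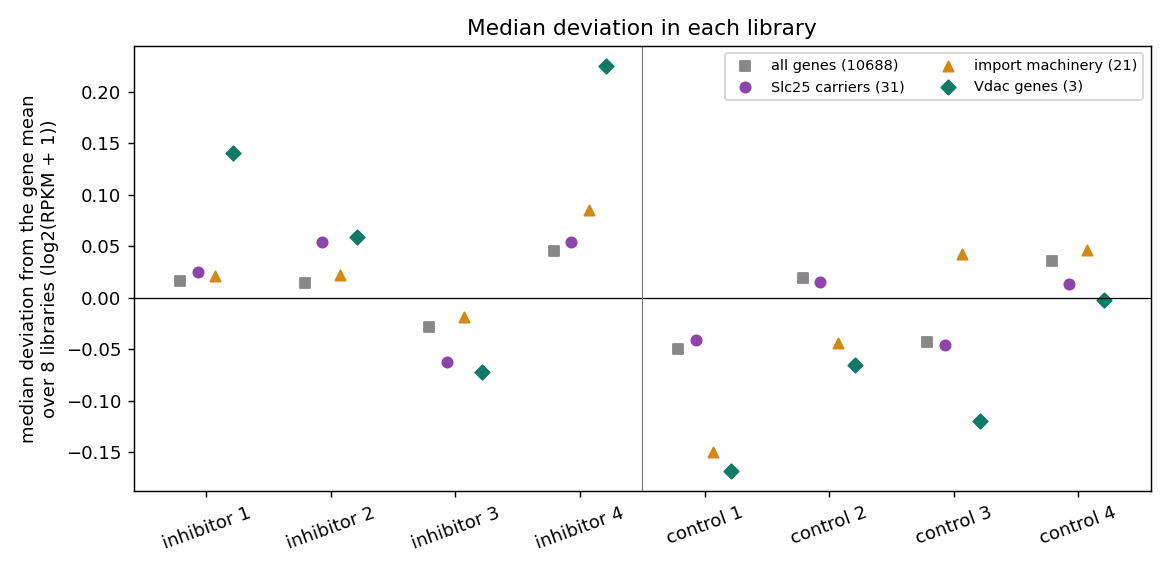
Median over each class of genes of the deviation from the gene's own mean over 8 libraries, on the log2(RPKM + 1) scale, by library, with all 10688 genes tested in grey. Control 1 is lowest for the import genes (-0.15) and the Vdac genes (-0.17), and inhibitor 4 is highest for both (0.08 and 0.22).

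Other genes of the same pathways were taken from lists chosen by function, with earlier results of these data known. Of 31 listed import, processing and folding partners, 27 were measured, with 20 positive and 7 negative fold changes (74.1% positive, against 54.3% of all genes). By limma 2 of them (7.41%, against 8.98% of all genes) were at an unadjusted p under 0.05, both higher in inhibitor cells. Mtx3, a metaxin of the outer membrane assembly machinery, had 3.24, 3.65, 4.02 and 3.48 RPKM in inhibitor libraries, against 2.35, 2.32, 2.94 and 2.51 RPKM in control libraries, without overlap. Groups did not overlap for 5.31% of all genes. The log2 fold change of Mtx3 was 0.38 ± 0.089 (SE; limma adjusted p = 0.541). Immp1l, a subunit of the inner membrane peptidase, was at 19.1 ± 2.43 RPKM in inhibitor and 15.5 ± 1.65 RPKM in control cells (SD, n = 4 each; limma adjusted p = 0.541). Of 23 listed other inner membrane transport genes and partners, 18 were measured, with 11 positive and 7 negative fold changes (61.1% positive, against 54.3% of all genes). Here 3 genes (16.7%, against 8.98% of all genes) were at an unadjusted limma p under 0.05. Mpc1, of the pyruvate carrier, was at 41.5 ± 3.35 RPKM in inhibitor and 36.2 ± 2.72 RPKM in control cells (SD, n = 4 each; limma adjusted p = 0.541). Ucp2, an uncoupling protein of beta cells, was at 109.5 ± 11.8 RPKM in inhibitor and 111 ± 9.12 RPKM in control cells (SD, n = 4 each; limma adjusted p = 0.934). Over both lists 0 genes passed the adjusted limma test.

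Of the 55 genes, 2 had in the authors' deposited table an unadjusted p under 0.05, against 7.49% of all genes, and 0 had an adjusted p under 0.05, against 0.0561%. Those genes in the authors' deposited table were Slc25a11, with a log2 fold change of 0.18 and a p of 0.0408, and Tomm40, with a log2 fold change of -0.22 and a p of 0.0492.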

How the data were processed

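The authors deposited RPKM per library for 8 rat islet cell libraries, per the file headers, with their own ratio of means (fold), log2 fold change, p-value and adjusted p-value per gene. Per the submitters' processing notes, the tools were HTSeq, HISAT2 2.1.0, RSEM 1.3.0 and STAR 2.5.3a, with build rn6. Which tool gave the RPKM, the annotation, strand handling, the authors' test and the listing rule are not given in the sources used here. Listed means began at 1.007 RPKM; genes outside the table were not analysed here.

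The main test was limma (version 3.58.1, under R 4.3.3) on log2(RPKM + 1) of the 10688 genes that reached an RPKM of 1 in 4 or more libraries, with the group alone, an intensity trend and Benjamini-Hochberg adjustment over all genes at 0.05. The added 1 understates changes of low genes, as for Slc25a37, at 0.24 with 1 added and 0.34 with 0.1 added. Whole reads were recovered for 10692 of 10692 genes, within a tolerance of 0.0001, and served for depth and for limma-voom as an alternative. The read recovery and the main limma fit were also run on simulated reads, with 200 genes changed for the fit. Those reads were drawn independently in each library, without shifts that many genes of a library share. They therefore do not show how the fit performs on these libraries, and their outcome is not reported here. Genes and lists were chosen with earlier results of these data known. In each of 11 role lists the named genes are the 2 of highest mean RPKM, the smallest p in each direction, all at an unadjusted p under 0.05 or without overlap, and the paralog pairs, with Timm10 added after its values were seen; also named are pathway genes at an unadjusted p under 0.05 and Ucp2, of which some are not reported here. The pair of Timm17b and Timm17a was not analysed here.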

Additional observations from a re-analysis of the deposited data

Results flagged for a closer look

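Values of 4 libraries of a group were examined for a library far from the other 3 in 128 groups, of which 3 stood out, where chance alone gives about 6.4 (1 in 20). All 3 were in control 1. Slc25a36 had 30.5 RPKM there, against 20.9 to 21.6 RPKM in the other controls. Slc25a44 had 14.3 RPKM, against 11.1 to 11.6 RPKM, and Tomm40 had 16.6 RPKM, against 19.3 to 19.6 RPKM. Control 1 also had the lowest mesenchymal marker sum of the controls, 2569 RPKM against 4647 to 5395 RPKM, and the part of that in these values was not tested.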

How the results depend on the processing

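With limma, 0 members and 0 of all genes passed the adjusted test under every alternative that was run. Library weights gave 2814 genes and 17 members at an unadjusted p under 0.05 (26.3% of all genes against 30.9% of members). Median-of-ratios scaling left 4 members without overlap between the groups (5.31% of all genes). Without both control 1 and inhibitor 4 there were 1699 genes at an unadjusted p under 0.05, and 8 members did not overlap (20.9% of all genes). With 1 library left out, the number of genes at an unadjusted p under 0.05 ran between 422 and 1273, of such members between 1 and 9, of members without overlap between 0 and 8, and of members with a positive fold change between 32 and 39. Of the fold changes of 44 named genes, 32 genes kept their sign under every alternative run. The sign of Slc25a44 turned with library weights (0.0169) and without both libraries (0.032), as did those of Slc25a24 (-0.0497) and Slc25a28 (0.0001) without both. With 1 library left out, the log2 fold change ran from -0.0646 to 0.0482 for Slc25a44, -0.0821 to 0.0268 for Slc25a28, -0.0076 to 0.088 for Slc25a20, -0.1055 to 0.0245 for Slc25a38, -0.1447 to 0.056 for Slc25a4, -0.0094 to 0.1755 for Slc25a46, -0.0515 to 0.0385 for Slc25a5, -0.0836 to 0.0329 for Tomm6, -0.055 to 0.0247 for Slc25a3, -0.0932 to 0.0164 for Ucp2 and -0.0101 to 0.0665 for Slc25a35. The cause was not tested. Libraries of the same number correlated at 0.14, -0.27, 0.32 and 0.45 in their deviations from the group means, and those of different number at -0.45 to 0.42. These values do not settle whether the numbers mark pairs, and the main fit took no pairs. With the replicate block limma gave 1109 genes and 6 members at an unadjusted p under 0.05. A planned edgeR fit to the recovered reads was run and then left out, because that count model was not accepted for reads recovered from RPKM. Its outcome is not reported here. Of the fits to recovered reads only limma-voom is reported, and it too does not rest on deposited counts.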
